A study of Caenorhabditis elegans with 2 samples.

Results

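The regions described here are the autosomal peaks of the nuclear hormone receptor NHR-11 of Caenorhabditis elegans that lie away from gene starts. A reproducible peak on an autosome was a member if its summit lay in no window from 1000 bases upstream to 500 bases downstream of the 5′ end of a protein-coding gene. Of the reproducible peaks, 820 were autosomal, and 385 of these were members, which is 46.95% of the autosomal peaks (Wilson 95% interval 43.6 to 50.4) and 37.4% of all peaks. The other 435 autosomal peaks lay at gene starts, and 210 peaks lay on X. By annotation, 178 member summits were intergenic, 161 were in introns of protein-coding genes, 23 were in exons of noncoding genes, and 23 were in coding sequence or untranslated regions.

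Chromatin immunoprecipitation with sequencing (ChIP-seq) recovers DNA that a protein contacts and maps it to the genome. It was carried out on whole L3 larvae of strain OP305, genotype unc-119(ed3) III; wgIs305, with males and females pooled. The 2 biological replicates form a single group, with a fragment size range of 150 to 350 bp, and the labels give no second stage, genotype or treatment. The description names an eGFP-tagged NHR-11 made from a transgene and the antibody label names nhr-11, so the epitope is not settled. Because whole animals were used, the cells in which a region was bound cannot be told from these lists, and transgenic NHR-11 need not match the amount of the endogenous protein. A control is named in the labels but was not analysed here. No file gives read counts, and depth is unknown. The signal is the value the authors gave each peak, its scale is not stated in the sources used here, and it serves to describe and order peaks within a list, with no level compared between lists.

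Nuclear hormone receptors are transcription factors with a zinc-finger DNA-binding domain and, in most members, a pocket for small lipophilic ligands. The family is greatly expanded in nematodes, and the ligands and target genes of most worm members are unknown. Worm genes are compact and most known control elements lie just upstream of the first exon, while long introns and long intergenic stretches can hold enhancers and starts of alternative transcripts.

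The summits of 10 members are shown because they carry the short words that recur at these peaks, or, for the peak near cmd-1, none of them. Each line gives 101 bases centred on the summit, plus strand of the ce11 build, taken from the RefSeq copy of the same assembly. Capitals mark the word GAGAGA, the word AGACGC, the word ACGCAG, the word GCGCGC and the E-box CACGTG on either strand. The reverse complement of GAGAGA reads TCTCTC. The words AGACGC and ACGCAG overlap in the joined word AGACGCAG, which reads CTGCGTCT on the other strand. The first 3 summits are intergenic, the next 4 intronic and the last 3 in noncoding exons.
F43C1.7, III:4237868-4237968: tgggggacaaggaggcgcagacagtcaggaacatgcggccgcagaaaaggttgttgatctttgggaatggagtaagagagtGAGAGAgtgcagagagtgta
hif-1, V:20778447-20778547: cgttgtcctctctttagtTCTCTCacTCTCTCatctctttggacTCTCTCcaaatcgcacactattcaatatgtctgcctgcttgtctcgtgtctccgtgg
din-1, II:11635925-11636025: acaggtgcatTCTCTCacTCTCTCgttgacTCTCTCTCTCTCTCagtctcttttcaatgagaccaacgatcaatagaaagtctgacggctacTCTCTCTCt
nhr-19, II:9603588-9603688: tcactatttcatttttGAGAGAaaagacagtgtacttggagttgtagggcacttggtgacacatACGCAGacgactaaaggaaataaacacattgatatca
mnk-1, II:10552095-10552195: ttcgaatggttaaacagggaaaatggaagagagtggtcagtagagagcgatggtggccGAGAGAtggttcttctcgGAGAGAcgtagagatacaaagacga
zfp-1, III:8802036-8802136: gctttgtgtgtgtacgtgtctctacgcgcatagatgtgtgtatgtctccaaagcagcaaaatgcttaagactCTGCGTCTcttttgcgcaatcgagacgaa
epg-9, IV:2602133-2602233: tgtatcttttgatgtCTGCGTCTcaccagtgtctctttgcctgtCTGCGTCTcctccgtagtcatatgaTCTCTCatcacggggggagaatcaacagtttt
cmd-1, V:1151452-1151552: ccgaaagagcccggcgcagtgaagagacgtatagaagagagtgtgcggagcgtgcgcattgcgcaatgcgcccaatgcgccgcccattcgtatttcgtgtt
egl-9, V:10466718-10466818: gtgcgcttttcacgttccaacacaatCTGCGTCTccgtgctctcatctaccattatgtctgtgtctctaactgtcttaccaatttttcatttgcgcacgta
drap-1, V:9731145-9731245: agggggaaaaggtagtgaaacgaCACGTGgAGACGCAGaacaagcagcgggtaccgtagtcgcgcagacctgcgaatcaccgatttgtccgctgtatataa

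Several separate copies of TCTCTC are present at hif-1 and din-1. The joined word is present once at zfp-1, egl-9 and drap-1 and in 2 copies at epg-9, and at drap-1 the E-box CACGTG lies 1 base from it. The nhr-19 summit holds ACGCAG without the joined word. The summit near cmd-1 is rich in G and C (58.4%) without any of the 5 words.

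The strongest intergenic member lay 4657 bases downstream of the start of F43C1.7 (WBGene00023423), in the 8110-base gap between nhr-20 and F43C1.7. The summit was 3412 bases past the 3′ end of F43C1.7. It was also 4699 bases upstream of the start of nhr-20, which is almost as near. The member spanned III:4237740-4238095, with a pooled signal of 410 and rank 5 in the list. Its signal was 194 in replicate 1, where it ranked 6, and 214 in replicate 2, where it ranked 4. The peak nearest to nhr-175 (WBGene00008630), a nuclear hormone receptor gene, spanned V:13869719-13869819 and had a pooled signal of 302, with 141 in replicate 1 and 159 in replicate 2. It was the single member that was not 356 bases wide. Next came the peak 1891 bases upstream of cpg-1, which encodes a chondroitin proteoglycan of the eggshell, with a pooled signal of 214 and replicate values of 91.0 and 122.

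The peak near ins-13, an insulin-like peptide gene, had a pooled signal of 212 and lay 40 bases from sls-2.2, a gene for a spliced leader RNA that is annotated as a snRNA. A second member with a signal of 121 overlapped it, and both matched the same region in each replicate, with signals of 106 and 113. There were 6 such members in 3 overlapping pairs, at ins-13, nhr-19 and sdz-38, and each pair is 1 region in the replicate lists.

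Members lay upstream of hif-1 and of egl-9, which act in 1 pathway of oxygen sensing and are described together after their values were seen. The peak 1910 bases upstream of hif-1, the hypoxia-inducible transcription factor, spanned V:20778319-20778674 with a pooled signal of 191 and replicate signals of 121 and 73.2. It ranked 33 in replicate 1 and 110 in replicate 2. The peak 1749 bases upstream of egl-9, the prolyl hydroxylase that marks HIF-1 for degradation, lay in exons of the noncoding genes F22E12.9 and F22E12.10 at V:10466590-10466945. Its pooled signal was 169, with 73.3 in replicate 1 and 95.6 in replicate 2.

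Other intergenic members among the 12 strongest lay 2000 bases upstream of sup-26, an RNA-binding protein gene (signal 162), 5766 bases upstream of ptc-1, a Patched homologue (158), and 4632 bases upstream of flp-16, a neuropeptide gene (148). The others were nearest to T16A9.3 (155), F40E3.3 (149), casc-3 (137) and gldi-3 (136). Only 28.2% of the window of the F40E3.3 member was sequence that occurs once in the genome, so its position is less certain. All 12 were strong in both replicates, that is, they overlapped the top of each replicate's list, counted to the length of the reproducible list. The pooled signal that picked them comes from the same 2 replicates, so the choice favours this and it is not separate support.

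The strongest intronic member lay in nhr-19 (WBGene00003618), a nuclear hormone receptor gene, at II:9603460-9603815 and 1888 bases into the gene, in an intron of 4213 bases. Its pooled signal was 341, with 147 in replicate 1 and 189 in replicate 2. The second lay in mnk-1 (WBGene00011304), the gene of a kinase that acts downstream of MAP kinases, at II:10551967-10552322 with a pooled signal of 312 and replicate signals of 147 and 168. Next was the member in zfp-1 (WBGene00006975), a homologue of the chromatin factor AF10, at III:8801908-8802263. It had a pooled signal of 302 and replicate signals of 149 and 150, and it also lay within the window of another annotated transcript start of a protein-coding gene. A second zfp-1 member had a signal of 182 and another 55.9.

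The remaining members of the 8 strongest in introns lay in T28F4.1 (245), Y111B2A.12 (245), pqn-41 (189) and epg-9 (158), the last 2 being a glutamine-rich protein needed for death of the linker cell and an autophagy protein. All 8 were strong in both replicates, which the choice by pooled signal favours, and their ranks ran from 19 to 84 in replicate 1 and from 8 to 108 in replicate 2.

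Among the 23 members in noncoding exons, the strongest lay in linc-128, a long intergenic noncoding RNA gene, 4769 bases upstream of cmd-1 (WBGene00000552), the calmodulin gene. It spanned V:1151324-1151679 with a pooled signal of 354, replicate signals of 166 and 185, and rank 10 in the pooled list. The peak in T04C12.29, 1584 bases past the start of the actin gene act-1, had a signal of 144. The peak in F40F9.14 and F40F9.15 lay inside drap-1, a homologue of a corepressor of transcription initiation, with a signal of 140. The peak in T28B11.4 and T28B11.18 within T28B11.1 had 125, and the one in linc-129, 3204 bases upstream of the calcium pump gene sca-1, had 118. The drap-1 peak also lay 175 bases upstream of another annotated drap-1 transcript start. The T28B11.1 peak lay 693 bases upstream of another T28B11.1 transcript start. Of the 23, 16 (69.6%, interval 49.1 to 84.4) were among the strongest regions of both replicates, against 63.3% of all reproducible peaks.

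Coding sequence held 8 members, 3′ untranslated regions 8 and 5′ untranslated regions 7. The strongest were in the 5′ untranslated region of C34C12.2 (signal 159), in coding sequence of Y71G12B.31 (126) and in the 5′ untranslated region of F21C10.3 (117).

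Member signals ran from 54.9 to 410 with a median of 71.6, and 28 members were among the 100 strongest of all peaks, 4 of them among the 20 strongest. The median was 71.6 for intergenic members, 72.0 for intronic members, 75.8 in noncoding exons and 65.2 in coding sequence or untranslated regions. The median of autosomal peaks at gene starts was 74.2 and their maximum was 899. With the autosomal peaks cut into 5 parts of 164 by signal, members made up 42.1%, 45.1%, 45.7%, 51.8% and 50% from the strongest part to the weakest.

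Replicate support was close to that of the whole list. Strong in both replicates were 244 members (63.4%, interval 58.5 to 68.0), against a background of 63.3% of all reproducible peaks. The others were strong in 1 replicate, apart from 12 that were strong in neither. At gene starts the share was 62.3% (interval 57.7 to 66.7), and the difference did not pass (odds ratio 1.05; adjusted p = 0.966, adjusted over 17 measures in a two-sided Fisher's exact test). By class the share was 65.7% for intergenic members (interval 58.5 to 72.3) and 60.9% for intronic members (interval 53.2 to 68.1). Across the 382 members listed in both replicates, the Spearman correlation of the signals was 0.454, with 0.553 over 176 intergenic and 0.366 over 160 intronic members. These are descriptions across regions of the same 2 libraries, and regions are not independent replicates.

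**Figure D1:**
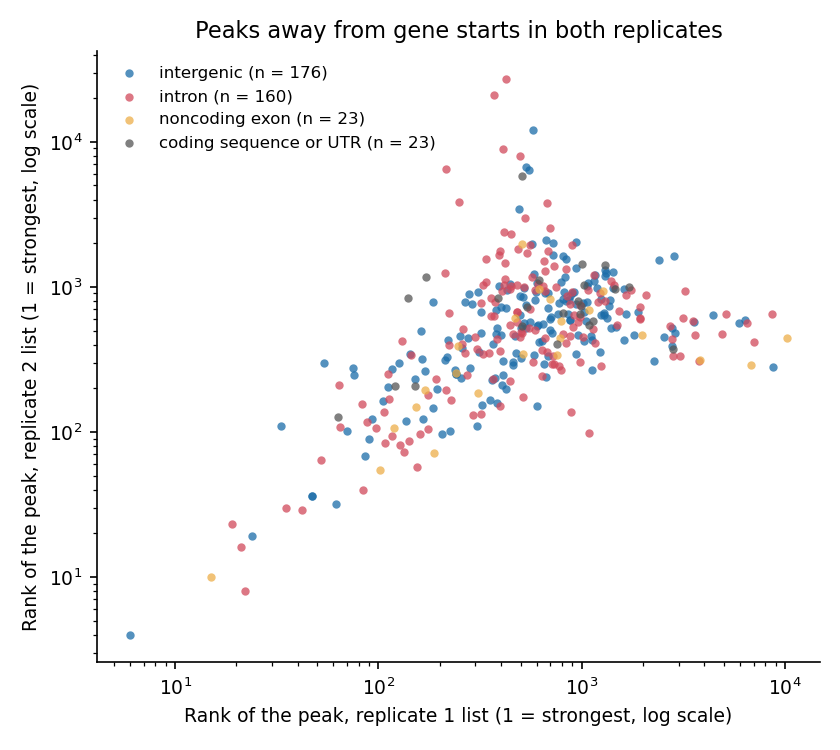
Rank by signal of each member in the replicate 1 list (x) and in the replicate 2 list (y), where 1 is the strongest region, both on log scales, coloured by annotation class. Each point is 1 of 382 members listed in both replicates. The F43C1.7 member ranks 6 and 4, and some members rank far lower in one list than in the other, such as the noncoding exon member nearest to jph-1 at ranks 10207 and 442.

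Intergenic sequence held a larger share of members than of the bases they could occupy, and coding sequence a much smaller one. Intergenic sequence held 46.2% of members (interval 41.3 to 51.2) and 27.3% of the autosomal bases outside gene start windows, a ratio of 1.69. Introns held 41.8% (interval 37.0 to 46.8) and 38.1% of those bases, a ratio of 1.10, and noncoding exons held 5.97% and 3.91%. Coding sequence held 2.08% of members (interval 1.06 to 4.05) but 24.99% of the bases, a ratio of 0.0831. No test was made of these shares. Of the 435 peaks at gene starts, 75.4% were intergenic.

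The share in coding sequence was larger at lower ranks. The candidate list of the pooled replicates goes on to 30000 regions, and for those outside gene start windows on autosomes the coding share was 12.9% at ranks 1031 to 2000, 18.8% at 2001 to 5000, 22.04% at 5001 to 10000 and 23.2% at 20001 to 30000. Over the same ranks the intergenic share went from 46.2% in the reproducible list to 41.2%, 31.5%, 30.6% and 28.3%, close to the 27.3% of bases at the end. The intronic share had no steady order, with 41.8% in the reproducible list and then 32.3%, 37.8%, 37.4% and 39.2%, against 38.1% of bases. The share of autosomal regions away from gene starts went from 46.95% to 64.6% at ranks 1031 to 2000 and 70.6% at ranks 20001 to 30000, where 72.6% of autosomal bases are away from gene starts. The weakest candidates thus had nearly the annotation of the available bases.

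**Figure D2:**
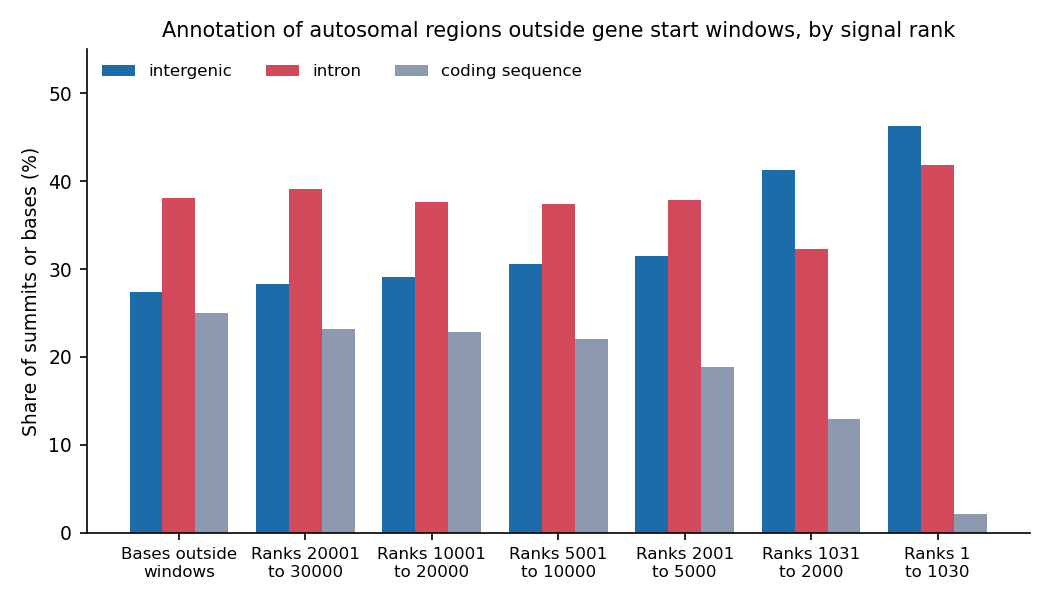
Share of intergenic, intronic and coding summits (y, percent) among autosomal candidate regions outside gene start windows, by rank of pooled signal, with the annotation of all autosomal bases outside the windows at the left. Coding sequence goes from 23.2% of the weakest candidates to 2.08% of members, and intergenic sequence from 28.3% to 46.2%.

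The median distance from a member summit to the nearest protein-coding gene start was 2473 bases (quartiles 1512 and 4555, maximum 19126). It was 2264 for intergenic and 3436 for intronic members, and 83 members were over 5000 bases away. At the edge of the rule, the nearest members lay 1005 bases upstream of cpg-8 and 1010 upstream of cec-1, and 535 bases past the start of F59G1.4 and 570 past scvp-1. The nearest peaks just inside a window lay 997 bases upstream of ahcy-1, 996 upstream of col-55, 485 past F54F2.6 and 484 past F21D12.3. At the lower end of the list, the weakest members had ranks 1026 (in F21D12.3) and 1027 (near R11A5.3), both at a signal of 54.9, and the strongest candidates below the list that met the rule had ranks 1033 (near cmd-1, 54.8) and 1034 (near srx-97, 54.7).

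**Figure D3:**
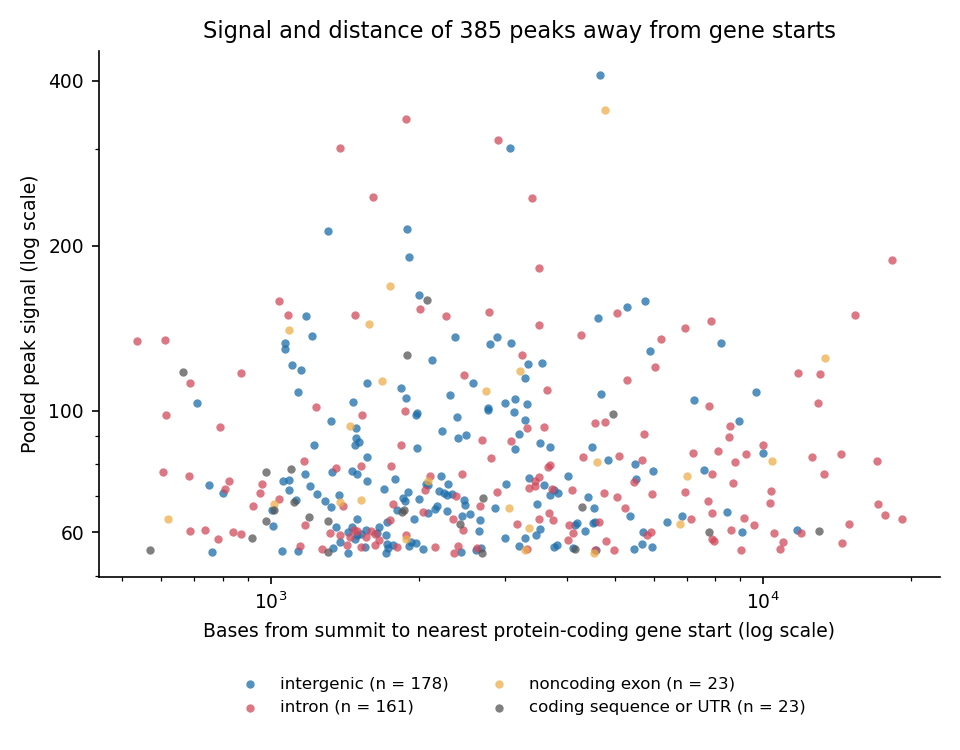
Pooled signal (y, log scale) against distance from the summit to the nearest protein-coding gene start (x, bases, log scale) for the 385 members, coloured by annotation class. Strong members are found at many distances by this measure, from 1306 bases at ins-13 to 18320 bases for a pqn-41 intron. The 18320 bases run to the start of F53A3.1, and another annotated pqn-41 transcript start lies nearer to that summit.

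Most intergenic members lay between genes in tandem and few between convergent genes. Of 178, 109 (61.2%) lay between genes in tandem, 58 (32.6%) between divergent genes and 11 (6.18%) between convergent genes, against 53.2%, 30.3% and 16.4% of the intergenic bases outside the windows. The nearest gene start was downstream of the summit for 136, which places them upstream of that gene, and 42 lay past the start of their nearest gene. Those upstream had a median distance of 2203.5 bases. The gap between the flanking genes had a median of 6089.5 bases for members and 7451 over the available intergenic bases, and 44 members (24.7%) lay within 1000 bases past a 3′ end. The share of available bases that near to a 3′ end was not counted, so the 24.7% cannot be read as many or few.

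Intronic members lay mostly in long introns. The median length of the intron was 3401 bases (quartiles 1585 and 7309), against 1083 over the intronic bases outside the windows. In introns longer than 1000 bases lay 136 of 161 members (84.5%), against 53.0% of the bases. First introns held 48 members (29.8%), against 17.6% of the bases. The windows of other annotated transcript starts held 41 intronic members (25.5%), against 13.5% of the bases, although the window rule used only 1 start per gene. Over all members, 49 (12.7%) lay in such a window. No test was made of these shares.

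The 161 intronic summits fell in 122 host genes or overlapping gene pairs, 22 of which held 2 or more members and 10 held 3 or more. The introns of nhr-19 held 5 members with signals from 60.4 to 341, all strong in both replicates, with 2 of them overlapping. Those of vhp-1, a MAP kinase phosphatase gene, also held 5, with signals from 60.6 to 70.5. The mnk-1 introns held 4 members (55.6 to 312), the pqn-41 introns 4 (64.6 to 189) and the T28B11.1 introns 4 (56.5 to 94.8). With 3 each came zfp-1 (55.9 to 302), the FOXO factor gene daf-16 (57.7 to 117), the AP-1 subunit gene jun-1 (61.8 to 95.2), the AMP kinase subunit gene aakg-1 (63.3 to 71.1) and the protein kinase A catalytic subunit gene kin-1 (55.7 to 58.3). All 3 jun-1 members lay in windows of other annotated transcript starts. So did some members of other genes, such as the mnk-1 member of signal 120 and the kin-1 members of signals 55.7 and 58.3. Genes with 2 included daf-5, a Ski and Sno homologue (117 and 146), the cGMP-dependent protein kinase genes pkg-2 (114 and 142) and egl-4 (63.5 and 86.7), the Nemo-like kinase gene lit-1 (83.3 and 103.3) and unc-43, the calmodulin-dependent kinase II gene (67.7 and 102). The genes holding an intronic member had a median length of 9147 bases, against 1964 for all autosomal protein-coding genes, so they also offer more intronic sequence.

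**Figure D4:**
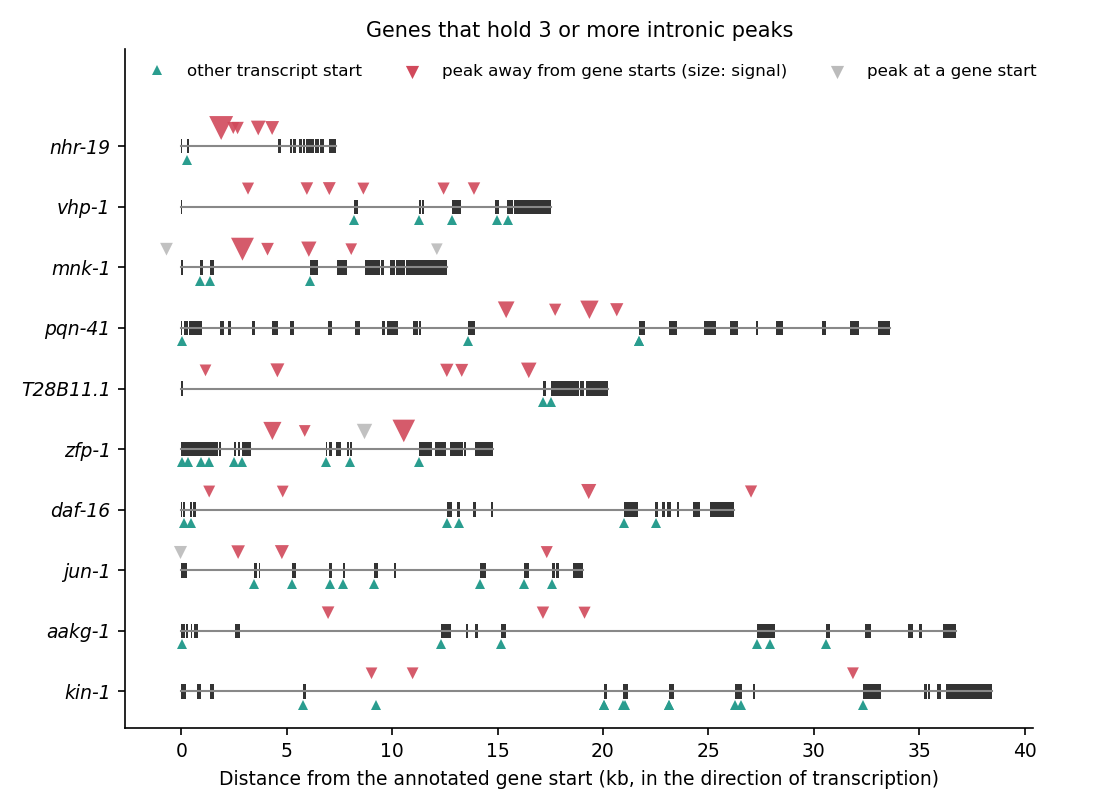
The 10 genes whose introns hold 3 or more members, drawn from the annotated gene start (x, kb in the direction of transcription). Black boxes are exons of all protein-coding transcripts, red triangles are members in any annotation class and grey triangles peaks at gene starts, with size by pooled signal, and green triangles are other transcript starts. The strongest member lies 1888 bases into nhr-19, and the 4 pqn-41 members lie together in 1 part of the gene.

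Another member lay within 3000 bases of 90 members (23.4%). By the same measure 42 autosomal peaks at gene starts (9.66%) had another such peak nearby, a difference that was not tested and that the rule can affect, since it fixes how far peaks lie from gene starts. A further count gave 41 members within 3000 bases of a peak at a gene start. Linking neighbours at that distance gave 335 loci, single members included, of which 35 had 2 members and 5 had 3 or more. Those 5 were the loci in nhr-19 (5 members), mnk-1 (4), pqn-41 (4) and vhp-1 (4, of which 1 in a noncoding exon), and the intergenic locus between sdz-38 and the galectin gene lec-3 (3, of which 2 overlap). The nhr-19 locus spanned 2418 bases between its outer summits and the pqn-41 locus 5246.

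Of the short words, GAGAGA was the most common, at 135 members (35.1%) within 50 bases of the summit. It was present in 6.36% of flanking windows of the same length 300 bases away and in 5.10% of all such windows on autosomes outside gene starts. In 29 of the 135 (21.5%) every copy of the word touched soft-masked (repeat or low-complexity) sequence of the reference, and in 106 (27.5% of all members) at least 1 copy did not. At peaks at gene starts it was present in 24.6%, and the difference passed (odds ratio 1.66; adjusted p = 0.0107 in a two-sided Fisher's exact test). With windows of 2000 bases to each side of gene starts the odds ratio was 1.56 (adjusted p = 0.0705 in the exact test), and without replicate 2 it was 1.37 (adjusted p = 0.160 in the exact test), so the call was lost in both. Of 17 measures, 3 passed (17.6%), and the tests compare positions in the same libraries, not conditions. The words tested were known from earlier results of these data, so the tests on words are not independent of those results.

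AGACGC was present at 14.3% of members and 1.69% of their flanks, and ACGCAG at 16.4% and 1.69%, with 1.90% and 1.86% of all windows. All 13 words were known from earlier results of these data, and ACGCAG had been picked from these same peaks, so its frequency is a description. Neither difference between members and peaks at gene starts passed, and at gene starts they were present in 14.5% and 19.5% (odds ratios 0.984 and 0.806; adjusted p = 1 and 0.621 in Fisher's exact test). The joined word AGACGCAG was present at 41 members (10.6%, interval 7.95 to 14.1), at 9.89% of peaks at gene starts, at 0.519% of the members' flanks and at 0.523% of all windows. It was looked for after the shorter words were seen to overlap. All 41 members that held both shorter words held the joined word. Members with the joined word had a median signal of 93.0, against 70.5 for the others. Of the 41, 32 (78.0%) were among the strongest regions of both replicates, against 63.3% of all reproducible peaks, a difference that was not tested. In 22 of the 41 GAGAGA was present as well.

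GCGCGC was rarer at members than at gene starts, at 2.60% against 8.97%, with 0.260% of the members' flanks and 0.638% of all windows (odds ratio 0.271; adjusted p = 0.00164 in Fisher's exact test). Without replicate 2 the odds ratio was 0.381 (adjusted p = 0.0551 in the exact test). TGTTTA, a core of forkhead factor sites, was present at 6.75% of members and 2.53% of peaks at gene starts (odds ratio 2.79; adjusted p = 0.0225 in Fisher's exact test), but it lost that call in all 7 alternatives that tested words. Its share at members was near the 7.53% of their flanks and the 6.77% of all windows, whereas at gene starts it was below the 9.08% of the flanks there. G and C made up 43.7% ± 8.23 (SD over members) of the member windows, 45.7% ± 8.33 of those at gene starts and 35.6% of autosomal bases outside gene start windows, and the part of base composition in these differences was not tested.

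The E-box CACGTG was present at 8.31% of members, 1.17% of their flanks and 4.83% of peaks at gene starts, a difference that did not pass (odds ratio 1.79; adjusted p = 0.199 in Fisher's exact test). The half-sites of nuclear receptors were not frequent at summits. AGGTCA was present at 2.08% of members and 3.77% of flanks, AAGTCA at 3.90% and 4.81%, and AGTTCA at 3.64% and 8.44%. The word TGATAA of GATA factors was at 6.75% and 10.8%. No match means only that these letters are not in the window.

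No word differed past the threshold between intronic and intergenic members. Of 13 words, 0 (0%) passed in the comparison of the classes with Fisher's exact test after adjustment, and 1, TGATAA, had an unadjusted p under 0.05 (9.32% of intronic and 3.93% of intergenic members, exact test, adjusted p = 0.641). GAGAGA was at 34.2% of intronic and 38.8% of intergenic members (odds ratio 0.820; adjusted p = 0.931 in the exact test), and at 30.4% of those in noncoding exons. The joined word was at 10.6% of intronic members (interval 6.70 to 16.3), 10.7% of intergenic members (6.94 to 16.1) and 17.4% of those in noncoding exons (6.98 to 37.1).

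**Figure D5:**
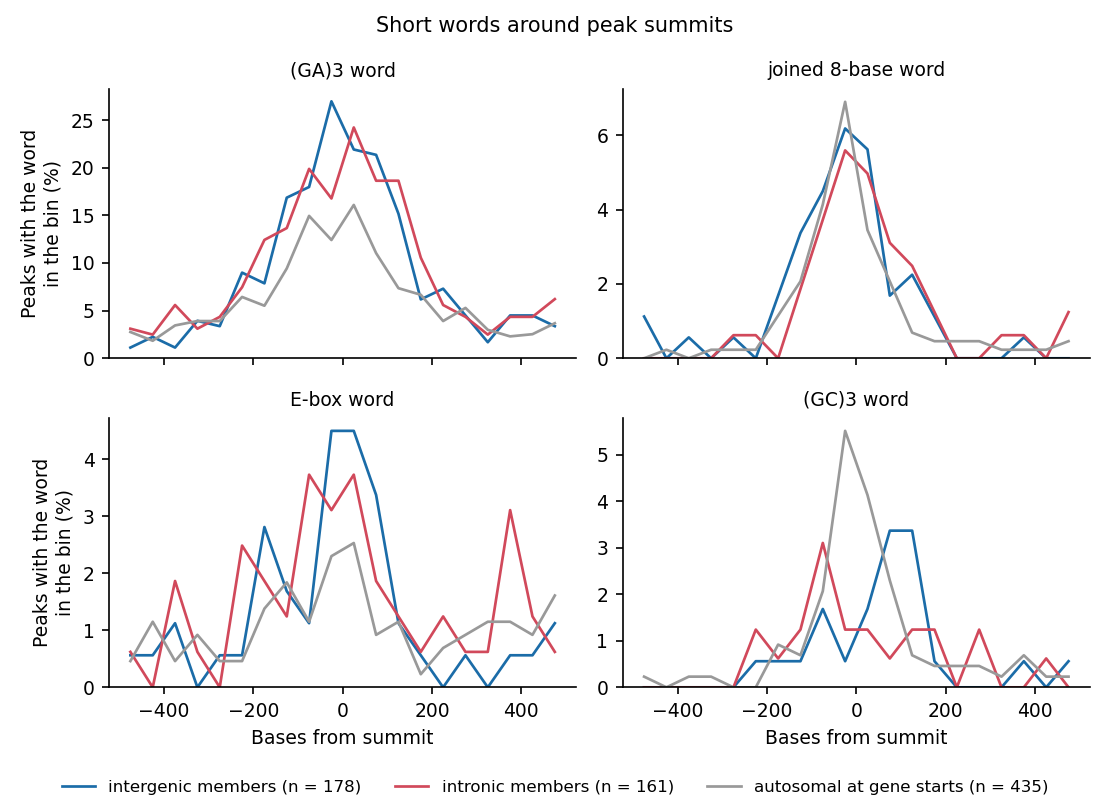
Share of peaks (y, percent) with a word in each 50-base bin by distance from the summit (x, bases), for intergenic members, intronic members and autosomal peaks at gene starts. In reading order the panels show GAGAGA, the joined word, the E-box CACGTG and the word GCGCGC. The first is broad around the summit and higher in both member classes, the second has its highest bin beside the summit in all 3 sets, and the last is highest at the summit for gene starts.

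Of the 385 members, 189 (49.1%) held at least 1 of the 5 words shown in capitals and 196 held none. The median signal was 77.2 with a word and 68.1 without. Among the 50 strongest members 27 held GAGAGA and 18 held AGACGC or ACGCAG, against 15 and 7 of the 50 weakest. Of the 77 members with AGACGC or ACGCAG, 75.3% were among the strongest of both replicates, against 60.4% of the others.

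Within 250 bases, tRNA genes lay near 3 members, snoRNA genes near 8 and snRNA genes near 4. None of these 3 differences from peaks at gene starts passed (odds ratios 1.13, 1.13 and 0.751; adjusted p = 1, 0.966 and 0.966 in Fisher's exact test). The strongest besides sls-2.2 were a peak 244 bases from the snoRNA gene K02F3.15 in an intron of the bZIP factor gene zip-2 (signal 117) and a peak in ZK20.9, a snoRNA gene 1683 bases upstream of din-1 (113). In classes that were not tested, piRNA genes lay within 250 bases of 8 members (2.08%, against 1.38% of peaks at gene starts) and miRNA genes of 2 (0.519% against 0.230%). Genes annotated only as ncRNA lay that near to 52 members (13.5%), against 15.4% of peaks at gene starts.

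Counted by gene, 315 of 17242 autosomal protein-coding genes (1.83%) held a member in their body or were the nearest start to an intergenic one. In the heterochronic list, whose genes time larval development, 5 of 12 genes did. These were din-1, a corepressor partner of the nuclear receptor DAF-12, with an intergenic member 2366 bases upstream (136), one in the ZK20.9 exon (113) and one in a 5′ untranslated region (60.05), lin-41, a TRIM-NHL protein gene, with one 1469 bases upstream (104), lin-28, an RNA-binding protein gene (93.4), sea-2 (89.7) and the Period homologue lin-42 (57.4), the last 3 in introns. The lin-28 member also lay 96 bases upstream of another annotated lin-28 transcript start. The genes of this list had a median length of 7192 bases, and the part of gene length in the count was not tested.

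Among other transcription factor genes 13 of 151 had a member, led by the AP-1 subunit gene fos-1 (133), dmd-7 (124) and zip-2 (117), and also including jun-1, daf-16, skn-1, mef-2, hlh-1, hlh-30, mml-1, egl-43, dmd-6 and daf-14. Of 247 nuclear hormone receptor genes 5 did (2.02%), namely nhr-19 (341), nhr-175 (302), nhr-157 (112.3), nhr-88 (112.3) and nhr-46 (65.1). Of 74 homeobox genes 1 did, unc-62 (98.5). Of 29 genes of growth factor, Wnt, Notch and TGF-beta signalling 3 did, with mpk-1, the ERK kinase (138), the FGF gene let-756 (106 and 85.97) and daf-4 (56.8). Of 211 ion channel and synapse genes 12 did, led by the neuropeptide genes flp-4 (151) and flp-16 (148) and by unc-43 (102). Of 59 heat shock and chaperone genes 1 did, cct-5 (75.6), and none of 82 ribosomal protein genes and none of 50 cell adhesion and guidance genes did. Counting by the nearest start leaves out nhr-20, although the F43C1.7 member lay 4699 bases upstream of it. The same rule counts nhr-175 for a member 1146 bases past its 3′ end. The median gene length was 755 bases in the ribosomal protein list, 3409 in the other transcription factor list and 10458.5 in the cell adhesion and guidance list. No test was made of these lists or of the part of gene length in their counts.

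A member lay in the first intron of unc-119 itself, 870 bases from its start, with a signal of 59.5 and replicate signals of 27.2 and 31.9, ranks 1298 and 803. The strain is mutant in unc-119, and worm transgenes of this kind carry an unc-119 rescue, so the copy from which these reads came cannot be told apart. No reproducible peak lay in nhr-11 or within 1000 bases of it, and the nearest autosomal peak was 91841 bases away.

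Chromosome II had the most members, 104, or 9.66 per megabase outside the windows, and V the fewest, 66, or 4.62 per megabase. The others had 75 (6.61) on I, 70 (6.74) on III and 70 (5.31) on IV. The member share of autosomal peaks was from 41.4% on III to 52.6% on IV, with overlapping intervals. Sequence that occurs once in the genome made up at least 90% of the window for 375 of 385 members.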

How the data were processed

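The authors deposited peak lists of the 2 replicates and of both pooled, on the ce11 and ce10 builds. The ce11 lists were used and the ce10 lists were not. Column 7 of each deposited list is a signal per peak, made by the authors on a scale that no label or header states. The aligner and the peak caller are likewise not given in the sources used here. Per the labels and list names, the authors made the reproducible list from both replicates. The candidate lists hold 30000 regions each.

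Summits were compared with the Ensembl release 115 annotation of WBcel235 in Python 3.11.15 with numpy 2.4.6, pandas 2.3.3 and scipy 1.17.1. A replicate value is that of the strongest overlapping region (at least 1 base) in its list. Feature classes were taken in the order 5′ untranslated, coding, 3′ untranslated, noncoding exon, intron and intergenic. Words were searched on both strands within 50 bases of the summit, in flanks 300 bases away and in all windows of 101 bases. Shares of members and of peaks at gene starts were compared with two-sided Fisher's exact tests with Benjamini-Hochberg adjustment over 17 measures, and intronic with intergenic members over 13, at a threshold of 0.05. Wilson intervals and p-values cover counting of peaks, which are not independent replicates. The window rule and tests were checked on simulated data. Named genes were the 12 strongest intergenic, 8 intronic, 6 noncoding-exon and 3 other members, loci of 3 or more, members at the edges of the rule and up to 3 of each of 9 gene lists, with genes described beyond this chosen after their values were seen. The members, the words and the gene lists were chosen with earlier results of these data known. Alternatives were other windows, transcript starts, list sizes, overlaps and word windows, and each replicate alone.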

Additional observations from a re-analysis of the deposited data

How the results depend on the processing

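Of 248 values under alternatives, 228 kept their side of the threshold or, without a test, stayed within the interval of the value reported. Most of the values are tests that did not pass in the main setting either, so this count says little about the 3 measures that passed. Of those, GAGAGA lost its call with the wider window and without replicate 2, GCGCGC lost it without replicate 2, and TGTTTA lost it in all 7 alternatives that tested words. With windows of 2000 bases to each side of gene starts, 231 members remained in the rule (28.2% of autosomal peaks), 1 measure passed instead of 3, and the GAGAGA odds ratio was 1.56 (Fisher's exact test, adjusted p = 0.0705). With all protein-coding transcript starts 40.98% of autosomal peaks were away from starts, of which 52.7% were intergenic and 35.7% intronic. By construction, the strongest 50% of peaks gave 175 members and the peaks strong in both replicates 244. With words sought within 100 bases CACGTG passed (odds ratio 1.95, exact test, adjusted p = 0.0436). Leaving out 1 replicate, with as many strongest regions of the other, gave 410 to 413 members, 49.9% to 50.1% away from starts, odds ratios of 1.37 to 1.87 for GAGAGA and 0.246 to 0.381 for GCGCGC, and 0 to 2 measures past the threshold. The cause of these changes was not tested. The value of 0 was reached without replicate 2. TGTTTA had adjusted p from 0.0548 to 0.895 (exact tests) over the 7 alternatives in which it lost its call. The 17 measures and 13 words limit what small shares can show, and the unknown depth limits all statements on weak peaks. No paired analysis was possible because the 2 replicates form a single group.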
